A study of Mus musculus with 9 samples.

Results

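The genes described here are 8 complement genes picked by symbol from the deposited expression table: the C1q chains C1qa, C1qb and C1qc, the receptor C3ar1, the components C3 and C4b, and the inhibitors Serping1 and Cd59a. All 8 were among the 13179 genes of the table, and all 8 passed the filter on low values that left 13137 genes to test. Polyadenylated RNA of the gastrocnemius, a calf muscle, was sequenced in 9 libraries, 3 per group, from mice on a high-fat diet for 6 weeks. The groups were p38alphaMCK-KO (p38α KO), p38alpha/gammaMCK-KO (p38α/γ KO) and control. MCK names the muscle creatine kinase promoter, which is active in striated muscle fibres, so macrophages, fibroblasts and vessel cells in the tissue are not its target. The labels give no age, no sex and no further genotype of the controls, and whether the libraries of a group are different mice is not stated. The tests below therefore speak of the variation among these 9 libraries. The comparisons below are those named in the series design, each knockout against control and p38α KO against p38α/γ KO, and the first 2 share the control libraries.

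Complement is a protein cascade of innate immunity. In its classical branch C1q, built from A, B and C chains, binds immune complexes or damaged cells. Of its proteases C1r and C1s, C1s cleaves C4 and C2, which leads to cleavage of C3. Fragments of C3 coat targets or act on receptors such as C3aR, the terminal proteins form pores, and inhibitors in plasma and on cell surfaces hold each step in check. Macrophages are a main source of C1q in most tissues, whereas C3, C4 and C1 inhibitor are made by liver and also by stromal cells.

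The table's values are normalised counts as deposited, on a scale near CPM. The whole numbers implied by the values gave 23.8 to 27.9 M inferred reads per library. Mapk14, which encodes p38α, lay between 40.3 and 45.5 in p38α KO, between 37.0 and 54.7 in p38α/γ KO and between 142.7 and 156.7 in control libraries. Mapk12, which encodes p38γ, lay between 96.5 and 105.1 in p38α KO, between 31.2 and 35.5 in p38α/γ KO and between 137.9 and 152.2 in control libraries. All 10 fast fibre markers were among the tested genes, with a summed level of 96322 to 135952 in p38α KO, 116634 to 121929 in p38α/γ KO and 155531 to 170566 in control libraries. Library 1 of p38α KO stood apart, with a correlation across genes of 0.960 with library 3 of its group. Its fast fibre sum was 96322, against 126716 and 135952 in libraries 2 and 3. Its sum of tenocyte (tendon cell) markers was 718.0, against 377.5 and 428.0. It was also the highest of its group for the C1q chains and C3ar1. Values without it are given beside the complement genes whose call its removal changes.

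The C1q genes lie side by side on the minus strand of chromosome 4, within 18.7 kb (GRCm38, GENCODE M21 annotation). C1qb occupies 136880129 to 136886187, C1qc 136889804 to 136893065 and C1qa 136895917 to 136898803. C3ar1 is on chromosome 6 (122847138 to 122856161), and Serping1 (84765387 to 84775444) and Cd59a (104095801 to 104115354) are on chromosome 2. C4b (34728380 to 34743882) and C3 (57203970 to 57228136) are on chromosome 17, which also holds Mapk14, 5.98 Mb from C4b and 28.46 Mb from C3.

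RefSeq promoter windows (GRCm38.p6) were matched for 5 of the 8 genes. The windows of C1qb, C1qc and C3ar1 are shown because these genes moved together in both knockouts, and that of Cd59a because this gene did not rise. Each holds up to 250 bases before the RefSeq start, without bases inside the annotated gene, and is written in the direction of transcription. Capitals mark GAGGAA, or its reverse complement TTCCTC, a core that the myeloid factor PU.1 can bind.
C1qb, chr4:136886201-136886450, minus strand: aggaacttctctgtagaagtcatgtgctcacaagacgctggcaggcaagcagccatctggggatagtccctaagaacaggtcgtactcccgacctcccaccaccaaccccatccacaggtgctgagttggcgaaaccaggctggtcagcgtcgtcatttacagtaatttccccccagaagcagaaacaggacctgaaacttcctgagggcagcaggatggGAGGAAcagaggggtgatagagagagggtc
C1qc, chr4:136893066-136893164, minus strand: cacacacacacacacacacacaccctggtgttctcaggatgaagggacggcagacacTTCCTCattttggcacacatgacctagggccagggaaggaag
C3ar1, chr6:122856162-122856407, minus strand: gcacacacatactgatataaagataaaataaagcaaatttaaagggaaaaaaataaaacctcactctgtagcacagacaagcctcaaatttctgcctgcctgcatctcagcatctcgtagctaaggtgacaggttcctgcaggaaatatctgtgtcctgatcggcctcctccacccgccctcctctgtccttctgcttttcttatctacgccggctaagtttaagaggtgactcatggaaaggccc
Cd59a, chr2:104095551-104095800, plus strand: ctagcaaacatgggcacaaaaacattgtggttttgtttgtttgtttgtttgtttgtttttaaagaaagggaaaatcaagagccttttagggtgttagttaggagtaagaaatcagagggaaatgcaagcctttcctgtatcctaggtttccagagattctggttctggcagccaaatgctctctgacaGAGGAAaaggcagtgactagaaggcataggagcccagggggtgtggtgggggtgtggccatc

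GAGGAA was searched on both strands in the 250 bases before each start and was found once in the windows of C1qb, C1qc and Cd59a, at 30, 193 and 62 bases before the RefSeq start. It was not found in those of C3ar1 and C3. Of all 32851 windows of this length, 23.3% held it. An interferon-response core (GAAA, any 2 bases, GAAA) was found in the Cd59a window, and in 2.98% of all windows. The gamma-activated core TTCNNNGAA was found in none of the 5 windows, and in 7.02% of all windows. The matches to different motifs did not overlap, and a match describes the sequence and not binding.

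In p38α KO muscle, the C1q chains and the C3a receptor rose, while C3, C4b and the inhibitors Serping1 and Cd59a did not pass the test. Of the 8 genes, 4 were higher and none lower at a limma adjusted p below 0.05, where 7.32% of all tested genes were called higher and 10.4% lower (17.8% in all). The median difference of the 8 genes was 0.99 on the log2(normalised count + 1) scale, beside 0.01 over all genes tested. The values of p38α KO and control did not overlap for 5 of the 8 genes, all higher, where 17.6% of all tested genes were higher and 21.1% lower without overlap.

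In p38α/γ KO muscle, the same C1q chains and C3ar1 rose, Serping1, the inhibitor of the C1 proteases, rose as well, and C3, C4b and Cd59a did not pass the test. Of the 8 genes, 5 were higher and none lower, where 11.2% of all tested genes were called higher and 14.4% lower (25.6% in all). The median difference was 0.91 on the log2 scale, beside 0.02 over all genes tested. The groups did not overlap for 6 of the 8 genes, 5 higher and 1 lower (Cd59a), where 26.4% and 28.6% of all tested genes were higher and lower without overlap. Between p38α KO and p38α/γ KO, none of the 8 genes passed limma's test and none had an unadjusted p below 0.05. Over all genes 0.122% were called higher in p38α KO and 0.320% lower (0.442% in all). The 8 differences ran from −0.08 for C1qc to 0.28 for C3 and Cd59a on the log2 scale, with adjusted p from 0.520 to 0.974. These groups overlapped for all 8 genes, where 6.73% of all tested genes were higher and 7.58% lower in p38α KO without overlap.

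**Figure D1:**
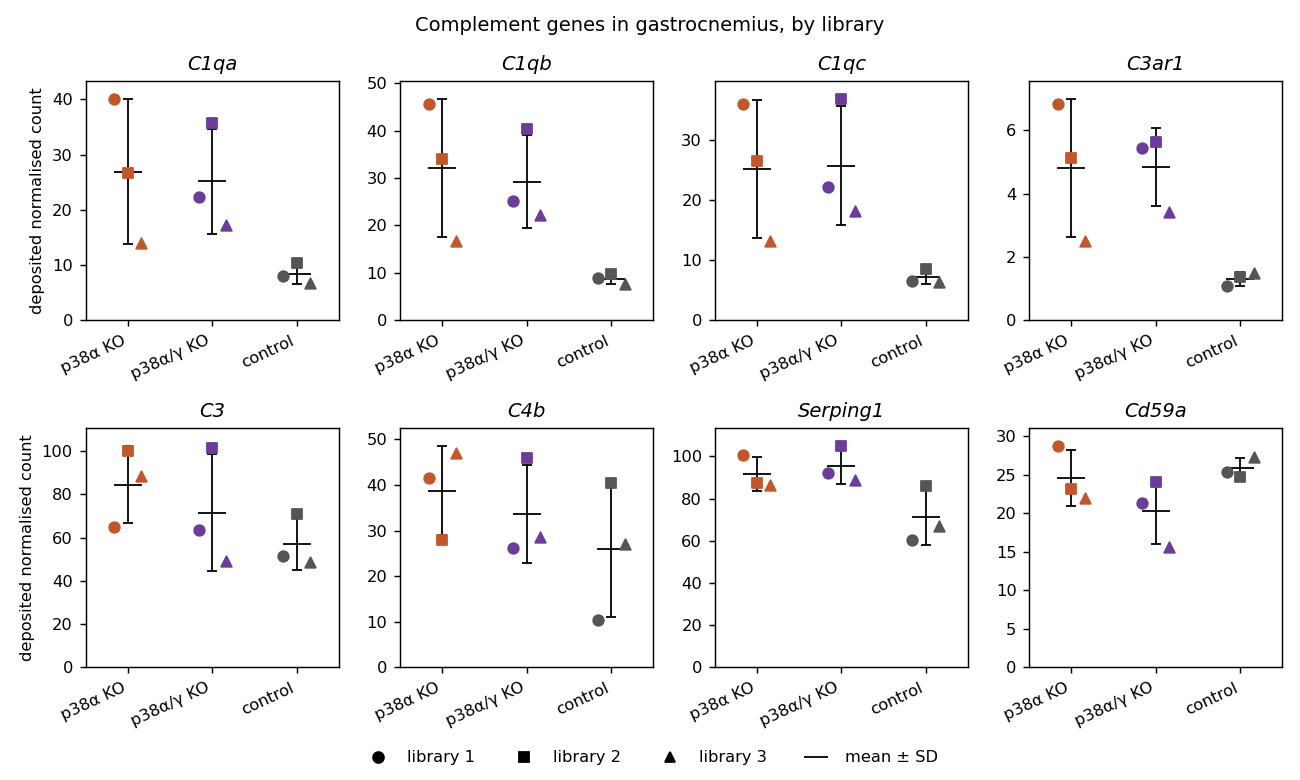
Deposited normalised counts (vertical axes, from 0) of the 8 genes in the 3 libraries of p38α KO, p38α/γ KO and control; symbols are libraries 1 to 3 and bars are mean ± SD. The lowest C1qa value of the knockouts, 14.0 in p38α KO, lies above the highest control value, 10.3, whereas the groups overlap for C3 and C4b.

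C1qb, the B chain of C1q, measured 45.6, 34.1 and 16.7 in p38α KO libraries 1 to 3, 25.1, 40.4 and 22.1 in p38α/γ KO and 8.93, 9.74 and 7.65 in control. Every knockout library lay above every control library, and library 3 was the lowest of each group. C1qb was 3.16-fold higher in p38α KO (log2 1.66, SE 0.325, limma adjusted p = 0.0105) and 3.0-fold higher in p38α/γ KO (log2 1.58, SE 0.325, adjusted p = 0.0113), as folds of the value + 1. The p38α KO call held in all 22 alternatives (adjusted p up to 0.0474), and the p38α/γ KO call was lost in 1 of 22, without p38α/γ KO 2 (log2 1.33, adjusted p = 0.0515).

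C1qc, the C chain, measured 36.0, 26.4 and 13.2 in p38α KO, 22.3, 36.9 and 18.1 in p38α/γ KO and 6.58, 8.55 and 6.39 in control. The order of the libraries within each group was that of C1qb. The difference from control was 1.58 on the log2 scale (SE 0.338, limma adjusted p = 0.0144) in p38α KO and 1.66 (adjusted p = 0.0111) in p38α/γ KO. In p38α KO significance went on leaving out control 1 (adjusted p = 0.0543) or control 3 (0.0583), and with the library number as a replicate block in a fit of the 6 libraries of that comparison (0.0531). The p38α/γ KO call held in all 22 alternatives.

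C1qa, the A chain, measured 40.1, 26.7 and 14.0 in p38α KO, 22.3, 35.8 and 17.3 in p38α/γ KO and 8.00, 10.3 and 6.83 in control. It was 2.78-fold higher in p38α KO (log2 1.47, SE 0.352, limma adjusted p = 0.0212) and 2.70-fold higher in p38α/γ KO (log2 1.43, adjusted p = 0.0195). More of its calls were lost under the alternatives than those of C1qb or C1qc. For p38α KO this happened without p38α KO 2 (adjusted p = 0.0593), control 1 (0.0680) or control 3 (0.0812) and with the block in the 6 libraries (0.0553), and for p38α/γ KO without p38α/γ KO 2 (0.0817), control 1 (0.0643) or control 3 (0.0718). Without p38α KO 1 the 3 chains remained called in p38α KO.

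The ratios between the chains varied far less over the 9 libraries than the chains themselves. C1qa ran from 0.783 to 1.06 of C1qb, and C1qc from 0.737 to 0.913 of C1qb, while C1qb itself ran from 7.65 to 45.6. The C1qa to C1qb ratio lay lower in every knockout library than in every control. It differed by −0.18 in p38α KO and −0.15 in p38α/γ KO on the log2 scale (two-sided exact permutation p = 0.1 each, the smallest possible). For C1qc to C1qb the differences were −0.06 (exact p = 0.5) and 0.10 (exact p = 0.4). Per kilobase of exon, C1qb averaged 29.5 ± 13.4 in p38α KO, 26.8 ± 9.01 in p38α/γ KO and 8.06 ± 0.967 in control (SD, n = 3), close to C1qa at 25.9 ± 12.6, 24.2 ± 9.17 and 8.05 ± 1.69 in these groups. C1qc, whose annotated exons are longer, averaged 13.1 ± 5.94 in p38α KO, 13.3 ± 5.10 in p38α/γ KO and 3.72 ± 0.619 in control.

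C3ar1, the receptor for the C3 fragment C3a on myeloid cells, measured 6.83, 5.12 and 2.51 in p38α KO, 5.45, 5.64 and 3.42 in p38α/γ KO and 1.07, 1.36 and 1.50 in control. These were 70 to 186 inferred reads in p38α KO, 83 to 161 in p38α/γ KO and 26 to 34 in control. The knockout libraries did not overlap the controls. C3ar1 was 2.39-fold higher in p38α KO (log2 1.26, SE 0.273, limma adjusted p = 0.0153) and 2.49-fold higher in p38α/γ KO (log2 1.32, adjusted p = 0.0117). At this low level the fold depends on the pseudocount: with 5 in place of 1 the log2 differences were 0.61 and 0.63, and with none they were 1.77 and 1.86, all of them called. For p38α KO the call depended on control 1 (adjusted p = 0.0593 without it) and went with the block in the 6 libraries (0.0805), and for p38α/γ KO it depended on p38α/γ KO 2 (0.0547 without it).

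**Figure D2:**
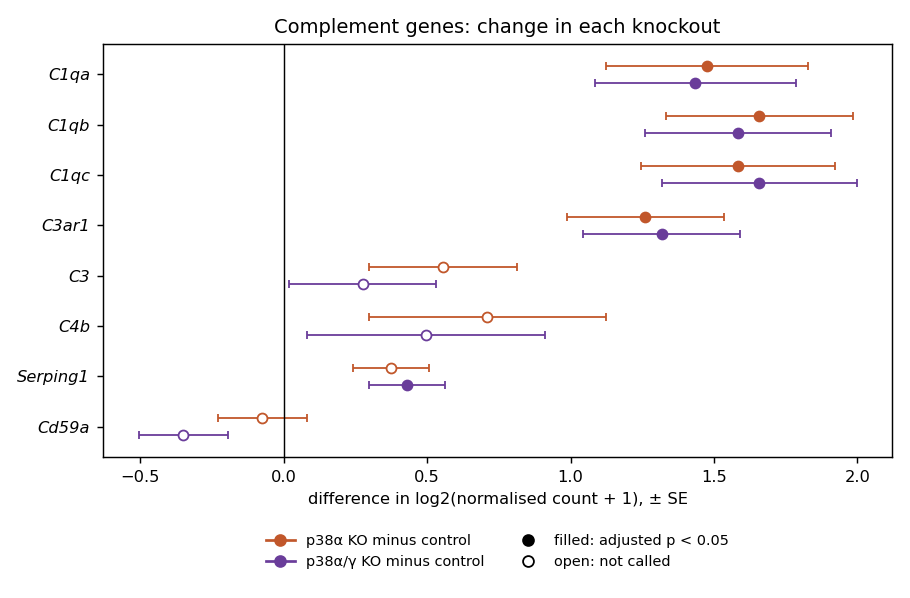
Difference in log2(normalised count + 1) from control for the 8 genes (horizontal axis), with p38α KO above p38α/γ KO in each row and bars of 1 SE; filled points passed an adjusted p of 0.05. C1qa, C1qb, C1qc and C3ar1 lie between 1.26 and 1.66 in both knockouts, and Cd59a lies at −0.07 and −0.35.

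C3, the component on which all branches converge, was not called in either knockout. It measured 65.1, 100.2 and 88.4 in p38α KO, 63.6, 101.7 and 49.3 in p38α/γ KO and 51.7, 70.9 and 48.7 in control. The groups overlapped, and library 2 was the highest of each group. The log2 difference from control was 0.56 (SE 0.257, limma adjusted p = 0.159) in p38α KO and 0.28 (adjusted p = 0.438) in p38α/γ KO. Without p38α/γ KO 2, the p38α/γ KO value was −0.0074.

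C4b, the component cleaved by C1s, measured 41.5, 27.9 and 46.9 in p38α KO, 26.2, 45.9 and 28.6 in p38α/γ KO and 10.5, 40.5 and 27.2 in control. Control 1 stood far below the other controls. The adipocyte marker Adipoq was low there too, at 8.08 against 42.6 and 41.9 in controls 2 and 3, and a link was not tested. Removal of control 1 took the log2 difference of C4b to 0.19 in p38α KO and −0.027 in p38α/γ KO. With all libraries it was 0.71 (SE 0.414, limma adjusted p = 0.253) and 0.50 (adjusted p = 0.384). C4b shares most of its sequence with the neighbouring copy C4a, so reads could have been assigned to either. C4a was not found by symbol among the 13179 genes.

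Serping1 encodes C1 inhibitor, which removes C1r and C1s from C1q, and per kilobase of exon it was the most abundant of the 8 genes, at 39.4 ± 3.38 in p38α KO, 41.0 ± 3.65 in p38α/γ KO and 30.6 ± 5.69 in control (SD, n = 3). It measured 100.7, 87.5 and 86.6 in p38α KO, 91.9, 105.0 and 89.0 in p38α/γ KO and 60.2, 85.8 and 67.2 in control. All knockout libraries were above all controls, but control 2 (85.8) lay just below the lowest of them (86.6). In p38α/γ KO Serping1 was 1.35-fold higher (log2 0.43, SE 0.132, limma adjusted p = 0.0401), and in p38α KO the log2 difference was 0.37 (adjusted p = 0.0775). The knockouts themselves differed by −0.06 (adjusted p = 0.892), so a call in 1 knockout alone does not show a difference between them. The p38α/γ KO call was lost in 8 of 22 alternatives. These were the fit without a trend (adjusted p = 0.0525), the replicate block in 9 libraries (0.0550) and the removal of control 1 (0.142) or 3 (0.120), p38α/γ KO 1 (0.0657), 2 (0.145) or 3 (0.0791) or p38α KO 2 (0.0570). With the block in the 6 libraries adjusted p was 0.00484. The p38α KO value passed with quantile normalisation (0.0446) or without control 2 (0.0359).

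Cd59a encodes a surface protein that blocks the terminal pore. It measured 28.7, 23.1 and 21.9 in p38α KO, 21.3, 24.0 and 15.6 in p38α/γ KO and 25.4, 24.7 and 27.3 in control. The p38α/γ KO libraries lay below the controls, by −0.35 on the log2 scale (SE 0.155, limma adjusted p = 0.118), and the p38α KO libraries overlapped them (log2 −0.07, adjusted p = 0.767). Neither difference passed the test, and reads of its neighbouring copy Cd59b could have been assigned to either gene. In two-sided exact permutation tests of single genes, 3 libraries against 3 cannot give a p below 0.1, and p = 0.1 was reached by C1qa, C1qb, C1qc, C3ar1 and Serping1 in both knockouts and by Cd59a in p38α/γ KO.

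Per kilobase of exon, the order of the other genes in control was Cd59a at 14.2 ± 0.762, C3 at 11.1 ± 2.34, C4b at 4.58 ± 2.64 and C3ar1 at 0.304 ± 0.0501 (SD, n = 3). In p38α KO they averaged 13.6 ± 2.0, 16.4 ± 3.48, 6.81 ± 1.72 and 1.12 ± 0.505, and in p38α/γ KO 11.2 ± 2.38, 13.9 ± 5.26, 5.90 ± 1.89 and 1.12 ± 0.286. In control the C1q A and B chains stood below Cd59a, and in both knockouts they stood above it. The mean ± SD ranges of C1qa and C1qb overlapped in every group, as did those of C4b and C1qc in control. These SDs are among libraries and do not compare 2 genes within a library. Within libraries, the deposited C1qa value was 0.783 to 0.890 of C1qb in the knockouts and 0.892 to 1.06 in control. The annotated exons span 1040 bases for C1qa and 1088 for C1qb.

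Markers of macrophages moved with C1q and C3ar1. Of 20 macrophage and monocyte markers, 14 were higher in p38α KO and 16 in p38α/γ KO, and none was lower. Over all tested genes 7.32% were higher and 10.4% lower in p38α KO, and 11.2% and 14.4% in p38α/γ KO. Cd53, Cd163, Folr2 and Lyve1 were called in neither knockout, and Adgre1 and Fcgr1 in p38α/γ KO alone. The median log2 differences of the 20 markers were 0.96 and 1.07. Their summed level was 355.1, 275.3 and 163.3 in p38α KO, 290.9, 344.9 and 177.5 in p38α/γ KO and 97.6, 124.1 and 92.5 in control, and the C1q sum put the libraries of each group in the same order. The C1q sum was 121.7, 87.2 and 43.9 in p38α KO, 69.6, 113.0 and 57.6 in p38α/γ KO and 23.5, 28.6 and 20.9 in control. In bulk tissue, more cells of a type and more RNA per cell cannot be told apart, and the part of macrophage content in the C1q result was not tested.

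C1q was also set against the sum of those markers in each library. The sum is of levels, so abundant markers weigh most. Lyz2 alone made up 134.8 of 355.1 in p38α KO 1 and 31.6 of 97.6 in control 1. The C1q sum was 0.343, 0.317 and 0.269 of the macrophage sum in p38α KO and 0.239, 0.328 and 0.324 of it in p38α/γ KO, against 0.241, 0.230 and 0.226 in control. The p38α KO values did not overlap the controls (log2 0.41, two-sided exact permutation p = 0.1, the smallest possible), whereas p38α/γ KO 1 lay among the controls (log2 0.34, exact p = 0.2). Between p38α KO and p38α/γ KO the ratio differed by 0.07 on the log2 scale (exact p = 0.7). The ratio of C3ar1 to the macrophage sum differed from control by 0.50 in p38α KO (exact p = 0.2) and 0.53 in p38α/γ KO (exact p = 0.1), and none of these tests could pass 0.05. The ratio depends on which markers are summed. Cd68, a lysosomal protein of macrophages, rose by 1.48 and 1.62 on the log2 scale. Cd163, a scavenger receptor of resident macrophages, was at 0.30 (limma adjusted p = 0.511) and 0.35 (0.399). Of other markers in the list, Lyve1 (0.24 and 0.15) and Folr2 (0.73 and 0.47) were not called either. Mrc1 was called in both knockouts (0.96 and 0.90, limma adjusted p = 0.0315 and 0.0323).

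**Figure D3:**
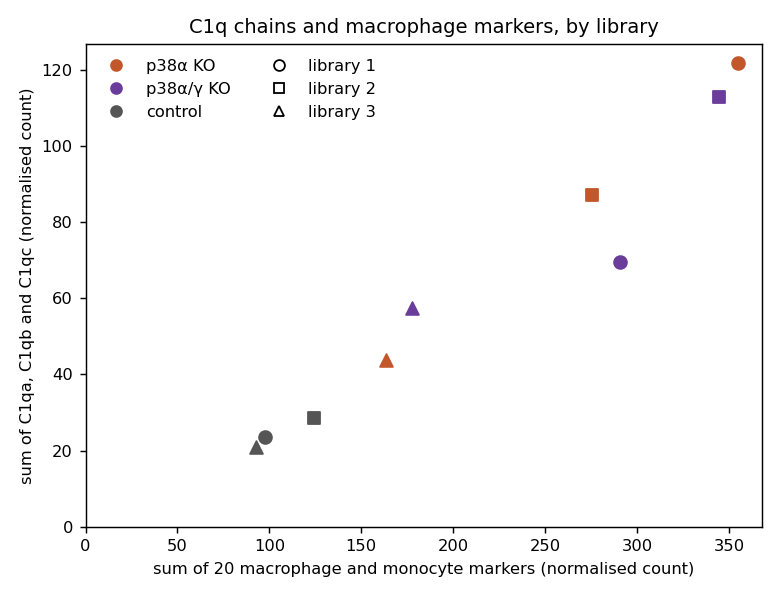
Sum of C1qa, C1qb and C1qc (vertical axis) against the sum of 20 macrophage and monocyte markers (horizontal axis), both in deposited normalised counts, for each of the 9 libraries. Controls lie between 92.5 and 124.1 on the horizontal axis and between 20.9 and 28.6 on the vertical axis, below and to the left of all knockout libraries.

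Markers of other cell types were counted beside the 7.32% higher and 10.4% lower of all genes in p38α KO, and the 11.2% and 14.4% in p38α/γ KO. Of 12 fibroblast and fibro-adipogenic progenitor markers, 1 was higher in p38α KO and 7 in p38α/γ KO, and their summed level was 2109 to 3275 in p38α KO, 2808 to 3802 in p38α/γ KO and 1877 to 2409 in control. Of 10 endothelial markers, none was called in p38α KO, and 1 was higher and 2 lower in p38α/γ KO. Of 6 tenocyte markers, none was called in p38α KO and 1 was higher in p38α/γ KO. Of 7 adipocyte markers, 1 was lower in each knockout. These were Lep by −2.70 in p38α KO (limma adjusted p = 0.0358) and Car3 by −0.92 in p38α/γ KO (0.0125) on the log2 scale. In p38α/γ KO 4 of the 7 had a positive difference (median 0.16), and in p38α KO 1 of the 7 (median −0.74). Car3 averaged 1915 in control and Adipoq 30.8, and which cells Car3 came from was not tested. The 4 hepatocyte markers tested were not called, and their summed level was 9.67 to 42.6 in p38α KO, 2.46 to 18.5 in p38α/γ KO and 15.6 to 74.5 in control. None of the 7 neutrophil and 7 lymphocyte markers listed was found by symbol among the 13179 genes, so these cell types could not be examined. Whether these cell types contribute to C3, C4b or Serping1 was not tested.

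The genes whose values ran most like the mean of the C1q chains over the 9 libraries were Fcgr2b, the inhibitory receptor for IgG (Pearson r = 0.998), Arhgap30 (0.990), Serpinb8 (0.988), Arhgap45 (0.987) and Ly86 (0.986). Those nearest to C3ar1 were the chemokine Ccl9 (0.996), the signalling adaptor Tyrobp (0.991) and the inhibitory receptor Pirb (0.989). For C3 the nearest were Bub1b (0.940), Ctps2 (0.939) and Selenop (0.929), and for C4b Shox2 (0.945), Clmn (0.924) and ENSMUSG00000115801 (0.920). For Serping1 they were Mfsd10 (0.981), Pcdh7 (0.980) and Ppia (0.977), and for Cd59a Copg1 (0.934), Pus7l (0.932) and ENSMUSG00000112496 (0.930). These are the highest of 13137 values over 9 libraries that share 3 groups, and are given as a description.

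Beyond the 8 genes, the surface regulator Cd55 fell and clusterin and properdin rose in both knockouts. Of 51 other complement genes listed, 26 were tested and 25 were not found by symbol among the 13179 genes. In p38α KO 3 of the 26 were higher, or 11.5%, and 1 was lower, beside 7.32% and 10.4% of all genes. In p38α/γ KO 5 were higher, or 19.2%, and 1 was lower, beside 11.2% and 14.4%, and with the library number as a block in the 6 libraries 11 of the 26 were called, in a fit that called 42.9% of all genes. The medians of the 26 were 0.22 and 0.20 on the log2 scale.

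Cd55 encodes decay-accelerating factor, which dissociates the enzymes that cleave C3. It measured 30.8, 31.4 and 31.3 in p38α KO, 27.3, 29.3 and 23.6 in p38α/γ KO and 60.3, 50.1 and 47.4 in control. No knockout library came near the controls, and the 3 p38α KO libraries lay within 1 unit of each other. The log2 difference was −0.73 (SE 0.111, limma adjusted p = 0.00396) in p38α KO and −0.95 (adjusted p = 0.00172) in p38α/γ KO. Of 22 alternatives the p38α KO call was lost in 1, the block in the 6 libraries (adjusted p = 0.0520), and the p38α/γ KO call in none. Clu, which encodes clusterin, a secreted chaperone that inhibits the terminal complex, measured 89.5, 63.2 and 68.0 in p38α KO, 66.4, 84.4 and 68.9 in p38α/γ KO and 44.3, 40.9 and 40.3 in control. It was 0.78 and 0.79 higher on the log2 scale (SE 0.138, adjusted p = 0.00699 and 0.00661), called in all 22 alternatives.

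Among activators, Cfp, which encodes properdin, the stabiliser of the alternative pathway's enzyme, measured 10.9, 8.03 and 4.93 in p38α KO, 7.79, 8.61 and 4.98 in p38α/γ KO and 3.30, 3.57 and 2.80 in control. It rose by 1.03 (SE 0.252, limma adjusted p = 0.0229) and 0.92 (adjusted p = 0.0281) on the log2 scale. Each Cfp call was lost in 5 of 22 alternatives, with adjusted p of 0.0572 to 0.0859 in p38α KO (without p38α KO 2 or any 1 control, or with the block in the 6 libraries) and 0.0594 to 0.110 in p38α/γ KO (without p38α/γ KO 1 or 2 or any 1 control). The classical proteases C1ra and C1s1 were higher in p38α/γ KO, at 22.5, 31.1 and 21.9 against 15.9, 19.7 and 14.5 in control for C1ra (log2 0.56, adjusted p = 0.0297) and at 55.4, 63.8 and 54.4 against 39.7, 48.7 and 39.7 for C1s1 (log2 0.43, adjusted p = 0.0249). Both calls were lost without p38α/γ KO 2 or 3 or control 1 or 3 (adjusted p of 0.0541 to 0.107 for C1ra and 0.0585 to 0.102 for C1s1), and each has a near-identical copy to which reads could have been assigned. Their differences in p38α KO, 0.35 and 0.33, were not called (adjusted p = 0.140 and 0.0746).

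Among receptors, Itgam, the alpha chain of complement receptor 3, was higher in p38α/γ KO, at 7.20, 6.13 and 3.05 against 1.60, 2.15 and 1.67 in control (log2 1.15, SE 0.303, limma adjusted p = 0.0250). The call was lost without p38α/γ KO 1 or 2 or any 1 control (adjusted p of 0.0531 to 0.0971). In p38α KO it was not called (log2 0.94, adjusted p = 0.0598) but passed in 4 alternatives: without p38α KO 3 (0.0113) or p38α/γ KO 3 (0.0408), without a pseudocount (0.0493) and with the block in 9 libraries (0.0309). C5ar1, the receptor for C5a, was not called in either knockout (log2 0.96 and 0.91, adjusted p = 0.0632 and 0.0587), but with the block in 9 libraries it passed in both p38α KO (0.0496) and p38α/γ KO (0.0462). Its p38α KO value also passed without p38α KO 3 (0.00867), and its p38α/γ KO value without p38α KO 1 (0.0118) or 3 (0.0176), without a pseudocount (0.0452), in the 6 libraries alone (0.00697) and with the block in them (0.0057). The integrin chains Itgb2 and Itgax, partners in complement receptors, were not called in p38α/γ KO (log2 0.95 and 0.84, adjusted p = 0.0556 and 0.0896) but passed without p38α KO 1 (0.0171 and 0.0362) or 3 (0.0204 and 0.0352) and in the 6 libraries alone (0.0124 and 0.0250) or with the block (0.0160 and 0.0262). In p38α KO (log2 0.82 and 0.62, adjusted p = 0.107 and 0.221) they passed without p38α KO 3 (0.0185 and 0.0379). C1qbp, a mainly mitochondrial protein that can bind C1q, was higher in p38α KO, at 94.5, 96.8 and 89.6 against 79.9, 75.7 and 76.5 in control (log2 0.27, adjusted p = 0.0457), a call lost in 11 of 22 alternatives (adjusted p up to 0.159). Those 11 left out p38α KO 1 (0.0505) or 2 (0.122), p38α/γ KO 2 (0.0676) or 3 (0.0569) or any 1 control (0.0993, 0.130 and 0.139), or used no trend (0.0711), the 6 libraries alone (0.0736) or either block (0.0967 and 0.159). Between the knockouts none of the 26 genes passed limma's test, and 1 had an unadjusted p below 0.05.

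**Figure D4:**
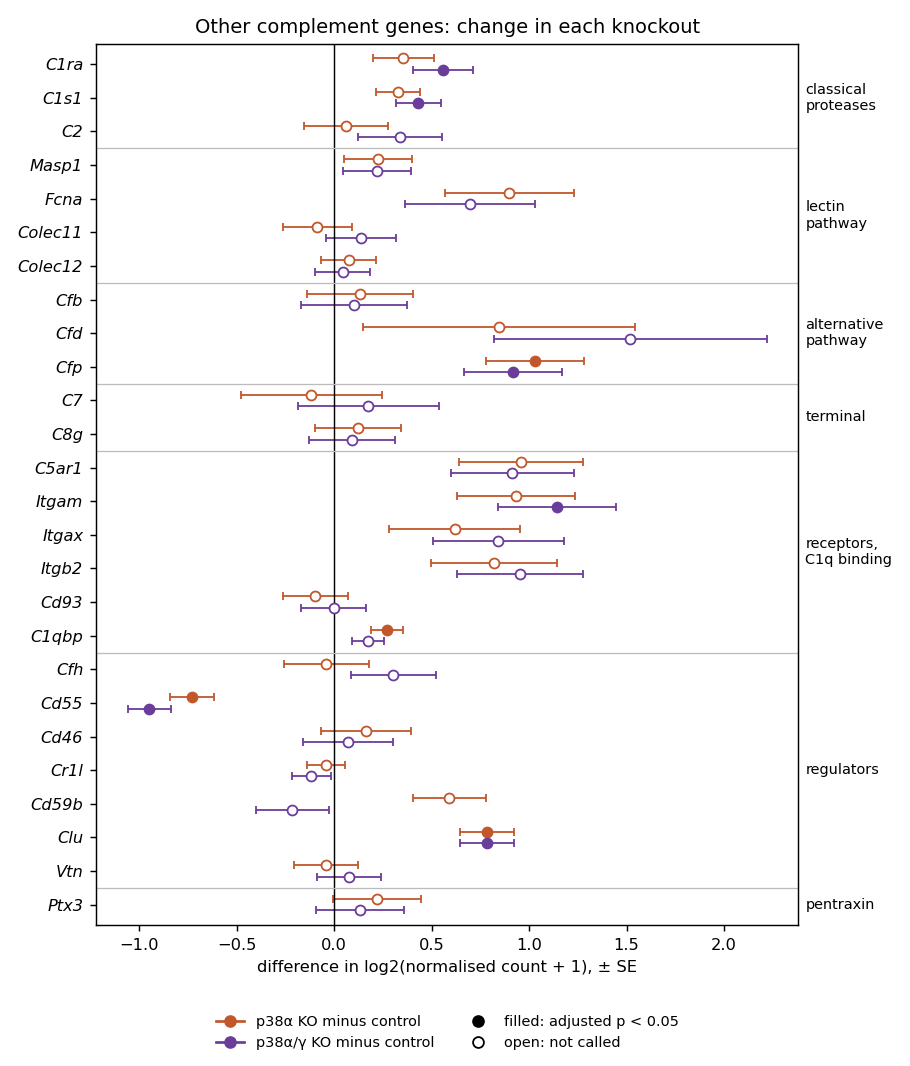
Difference in log2(normalised count + 1) from control for the 26 other complement genes tested (horizontal axis), grouped by role, with p38α KO above p38α/γ KO in each row and bars of 1 SE; filled points passed an adjusted p of 0.05. Cd55 lies at −0.73 and −0.95 and Clu at 0.78 and 0.79, and the points of most other genes are open.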

How the data were processed

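Values were used as the authors deposited them: 1 signal value per gene and library, named as normalised counts in the file's name. How they were scaled and filtered is not given in the sources used here. Per the submitters' processing notes, the tools were RSEM 1.3.1, cutadapt, CASAVA 1.8 and limma, with the GRCm38 genome. Per the labels' protocols, 100 ng of RNA with a RIN above 8 entered a stranded kit and 51-base single reads were made. Each deposited value equals a whole number plus 0.5 times a constant of its library, which gave the inferred reads; they were not tested as counts.

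Genes that reached 1 in 3 or more libraries entered the test. It was run in R 4.3.3 with limma 3.58.1, on log2 of the value plus 1, in 1 fit of all 9 libraries, empirical Bayes with a trend and Benjamini-Hochberg adjustment over all 13137 genes. Genes were called at an adjusted p below 0.05. Fold changes are of value + 1, which understates changes of low genes. The script was checked on simulated data. Coordinates and exon lengths were those of GENCODE M21, where 13166 of the table's identifiers were found. Figures were drawn with matplotlib 3.10.9.

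The members, the 51 other complement genes and the marker lists were chosen with earlier results of these data known, and no list was tested as a set. By rule, the text names all members and other complement genes called in a comparison. It also names the 5 genes most like C1q and the 3 most like each other member. C5ar1, Itgb2, Itgax, Lep, Car3, Adipoq, Cd59b, Fcna and Cfd were named after their values were seen. The same holds for Cd68, Cd163, Mrc1, Folr2, Lyve1, Lyz2, Cd53, Adgre1 and Fcgr1. Alternatives are described in the closing section.

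The libraries of each group are numbered 1 to 3. After subtraction of group means, libraries with the same number correlated at 0.111, 0.124 and 0.148 across genes for p38α/γ KO and control. This pairing was read from the data and not the labels. For p38α KO and control the values were −0.0858, −0.0866 and 0.0951. The fit had no block, and a fit blocked by number is reported where it changes a call. Of the other complement genes, Fcna is not described above. Its p38α KO difference (log2 0.90, limma adjusted p = 0.0884) passed with the block in 9 libraries (0.0370). It also passed without p38α KO 3 (0.0156). Its p38α/γ KO difference (log2 0.70, adjusted p = 0.142) passed with the block in the 6 libraries (0.0173).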

Additional observations from a re-analysis of the deposited data

How the results depend on the processing

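Each result was computed again under 22 alternatives: other low-value filters, pseudocounts (0.5, 5 or none), scaling (TMM factors, median of ratios, quantile), spread estimates, the 6 libraries alone, the replicate number as a block, and each library left out. The fits without a pseudocount and with the block in the 6 libraries were added after seeing the data. The member count of p38α KO (4) was 1 with the replicate block in the 6 libraries and 1 to 5 with 1 library left out (1 without control 1, 2 without control 3); the replicate block in 9 libraries gave 4. That of p38α/γ KO (5) was 1 to 5 with 1 library left out (1 without p38α/γ KO 2, 3 without control 1 or 3), 4 with the replicate block in 9 libraries and 5 in 6. The count of other complement genes called in p38α KO (4) was 7 with the replicate block in 9 libraries, 1 in 6, and 2 to 11 with 1 library left out (2 without p38α KO 2 or any 1 control, 11 without p38α KO 3). In p38α/γ KO (6) it was 7 and 11 with these blocks and 2 to 9 with 1 library left out (2 without p38α/γ KO 2, control 1 or control 3). Between the knockouts it was 0 to 1, the 1 being Cd59b without p38α KO 1, and the block gave 0. The replicate block changed no other p38α/γ KO call of a member than that of Serping1. The cause of these changes was not tested.

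Directions turned with 1 library left out, all in differences that were not called. Between p38α KO and p38α/γ KO the log2 ranges were −0.30 to 0.43 for C1qa, −0.23 to 0.47 for C1qb, −0.38 to 0.31 for C1qc, −0.31 to 0.27 for C3ar1 and −0.13 to 0.014 for Serping1. Against control they were −0.0074 to 0.51 for C3 and −0.027 to 0.90 for C4b in p38α/γ KO, and −0.19 to 9.81e-05 for Cd59a in p38α KO. Counts over all genes (2332 in p38α KO, 3368 in p38α/γ KO and 58 between the knockouts) were 1555, 2320 and 32 with the replicate block, 1364, 5536 and 22 in the 6 libraries alone and 212, 5637 and 16 with both. With 1 library left out they ran from 837 to 3257, 859 to 5388 and 23 to 1872, the last without p38α KO 1. With 3 libraries a group and 26 to 34 inferred reads of C3ar1 in controls, small differences in low genes could not be detected.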

Other observations

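Cd59b, the neighbouring copy of Cd59a on chromosome 2, averaged highest in p38α KO, whereas Cd59a averaged highest in control. Within each knockout both copies put the libraries in the same order. Cd59b measured 7.85, 6.17 and 5.46 in p38α KO, against 3.73, 3.89 and 2.31 in p38α/γ KO, without overlap (log2 0.81, SE 0.187, limma adjusted p = 0.133), and 4.80, 3.65 and 3.45 in control. Between p38α KO and control the log2 difference was 0.59 (limma adjusted p = 0.0557). It passed with the block in 9 libraries (0.0335), with a pseudocount of 5 (0.0451) and without p38α KO 3 (0.0359) or p38α/γ KO 3 (0.0425). Without p38α KO 1 the difference between the knockouts was called (log2 0.68, adjusted p = 0.0431). Reads can be assigned to either copy.

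Cfd, which encodes adipsin, the protease of the alternative pathway made mainly by fat cells, had the largest log2 difference of the other complement genes in p38α/γ KO (1.52) but was not called (limma adjusted p = 0.131). It measured 69.4, 21.3 and 90.1 in p38α KO, 36.3, 175.0 and 87.1 in p38α/γ KO and 12.3, 56.7 and 31.1 in control. The ratios of same-numbered p38α/γ KO and control libraries were 2.97, 3.08 and 2.80, and adjusted p was 0.142 with the replicate number as a block in 9 libraries, 0.0745 in the 6 libraries alone and 4.8e-05 with the block in these 6, a fit added after seeing the data that called 42.9% of all genes. The labels do not say what the numbers mark.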
